A study of Mus musculus with 159 samples.

Results

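The MARCO- macrophage segments of 4 mouse livers were compared with the Other segments of the same livers, across all 607 genes of the deposited spatial transcriptomics table. The members were chosen by segment type alone: 24 MARCO- and 49 Other segments, together 73 of the 159 segments. MARCO- segments are areas stained for IBA1, a pan-macrophage protein, and not for MARCO or DESMIN. Other segments are the remaining area of a region of interest (ROI), negative for all 3 proteins, and were collected as a control of the segmentation. Livers 1 to 4 gave 6, 2, 9 and 7 MARCO- segments and 13, 13, 13 and 10 Other segments, and segments of a liver were averaged first, since they are not replicates. Each of the 24 ROIs with a MARCO- segment also had an Other segment. Of the MARCO- segments, 13 lay in MARCO-low and 11 in MARCO-high ROIs, and none of liver 2 lay in a MARCO-high ROI.

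The study asked how MARCO+ macrophages act on hepatic stellate cells in fibrosis. Its methods describe wild-type C57BL/6 mice, 8 weeks old at the start and of both sexes over the study, given the liver toxin carbon tetrachloride (CCl4) for 6 weeks, of which 2 of these 4 received MARCO+ bone marrow-derived macrophages (BMDMs) and 2 received saline. The labels name livers 1 and 3 as treated CCl4 with fibrosis and livers 2 and 4 as control and healthy, and do not say which livers received BMDMs. The pairs are therefore called by their labels, and MARCO- segments may hold resident, recruited or, in recipients, transferred cells.

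Macrophages of the liver comprise resident Kupffer cells, which clear particles and dying cells from the blood of the sinusoids, and cells that enter from the circulation after injury. MARCO is a scavenger receptor found on only some of them, and MARCO- segments are macrophage areas drawn as negative for its stain. Most of the remaining area of a liver section is hepatocytes, which make the bulk of the complement and other proteins of plasma. The deposited genes were selected by the authors as genes found mainly in stellate cells, so the usual labels of both compartments are missing. Of 57 listed macrophage genes 6 were in the table, and *Aif1* (which encodes IBA1), *Cd68*, *Adgre1* and *Clec4f* were not among them. Of 30 listed hepatocyte genes and 12 cholangiocyte genes none was in the table, so the hepatocyte content of Other segments could not be checked.

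The 2 segment types differed greatly in depth. The values were counts scaled so that the upper quartile (Q3) of the 607 genes stood at 26.1 in every segment, and the counts could be recovered from them. MARCO- segments held 1065 to 4457 counts over the 607 genes (median 1639.5), and Other segments 75571 to 448875 (median 209469). In MARCO- segments 1 count was worth 2.90 to 13.0 on the normalized scale, and 12.7% to 67.2% of the genes (median 47.4%) stood at exactly 1 count, the lowest value listed. In Other segments the lowest value was 12 to 109 counts. A gene at 1 count in a MARCO- segment cannot be told from an absent one, yet it carries a value that a gene of Other segments can lie below. Statements on single genes therefore rest on 158 genes, here called well above the floor. Their mean over both types reached at least 3 times the mean value of 1 count in MARCO- segments (25.5 or more). A gene can pass this limit through 1 type alone and lie under it in the other. For example, *Oaf* averaged 21.5 in MARCO- and 87.8 in Other segments, and *Axl* 81.6 and 9.06. The shares called among the 158 genes include such genes. All differences are relative to the upper quartile of these genes, so a smaller share of a cell type and less RNA per cell cannot be told apart.

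Over all 607 genes, limma on the 8 means per liver and segment type, with liver as a block and Benjamini-Hochberg adjustment, placed 408 genes (67.2%) below an adjusted p of 0.05. Of these 289 (47.6%) were higher and 119 (19.6%) lower in MARCO- segments, with a median log2 difference of 0.38 over all genes. The excess of higher genes lay where Other segments stood below the value of a single MARCO- count. Of 207 such genes, 191 were called higher and 0 lower by limma, and 86 higher and 0 lower by edgeR. Of the other 400 genes, 98 were called higher and 119 lower. edgeR on counts summed per liver, with trimmed mean of M-values (TMM) scaling, called 320 genes (52.7%), with 145 higher and 175 lower, so that the excess turned to the lower side under this scaling. For MARCO- versus Other, the same test with library sizes from the Q3 scaling called 348 genes, 215 higher and 133 lower, with a median of 0.28, so that the excess stayed on the higher side. With TMM the median log2 difference over all genes was 0.04, so the direction of small differences depends on the scaling. Among the 158 genes well above the floor, limma called 115 (72.8%), 34 higher (21.5%) and 81 lower (51.3%), with a median log2 difference of -0.43. Of these, edgeR called 30 higher and 81 lower in the same direction. Called genes were thus the rule, and a single call says less than its size.

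**Figure D1:**
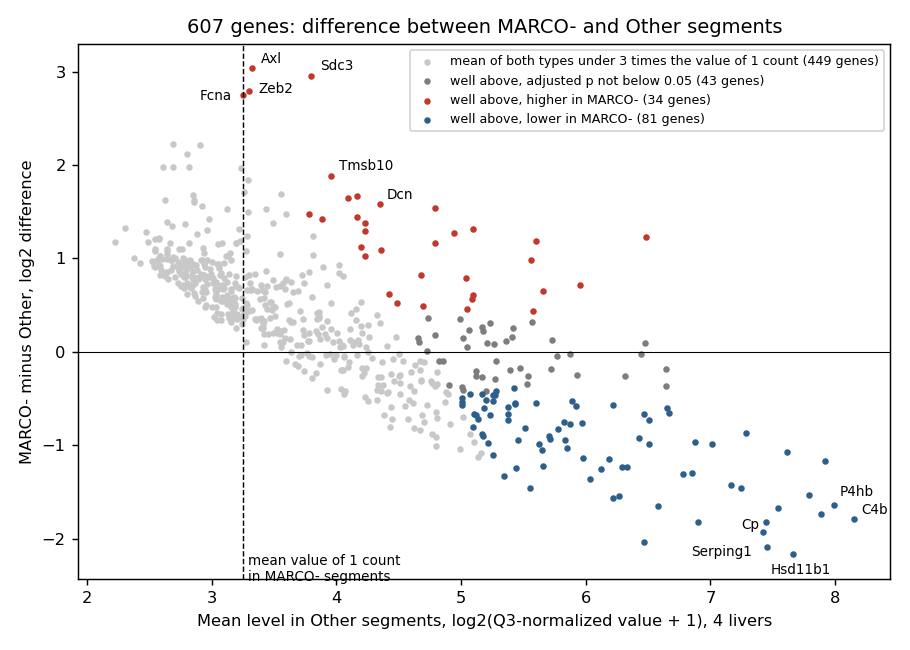
Each point is 1 of 607 genes. The horizontal axis gives the mean level in Other segments over 4 livers as log2 of the Q3-normalized value plus 1, the vertical axis the log2 difference of MARCO- from Other segments, and the dashed line the mean value of 1 count in MARCO- segments (8.49 before the log). Grey genes near or left of the line lie above 0 along an edge set by the floor, whereas *Axl*, *Sdc3*, *Zeb2* and *Fcna* stand far above that edge and 81 genes well above the floor lie below 0.

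*Axl*, *Sdc3*, *Zeb2* and *Fcna* were 6.75 to 8.19 times higher in MARCO- than in Other segments and led the 34 genes that were higher and well above the floor. They encode a receptor for dying cells, a heparan sulfate proteoglycan of the cell surface, a transcription factor that keeps Kupffer cell identity, and ficolin A, a secreted lectin of the complement system made by macrophages. The next 8 genes included genes of the cytoskeleton and of the matrix. On the other side, *Hsd11b1*, *Serping1*, *Oaf* and *Rarres2* were 3.80 to 4.49 times lower. Complement genes, ceruloplasmin, fibronectin and enzymes of the endoplasmic reticulum made up most of the rest.

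The promoters of the 4 highest genes and of the lowest are printed because these genes mark both ends of the comparison. They are RefSeq sequences (GRCm38.p6) from 250 bases before to 50 bases after the first listed start of each gene, 5′ to 3′ on the strand of the gene, with the letters GAGGAA, or TTCCTC on the opposite strand, in capitals. GAGGAA is a common core of sites for PU.1, a transcription factor that macrophages need. *Axl* lies at chr7:25788684-25788983 (minus strand), *Sdc3* at chr4:130792287-130792586 (plus), *Zeb2* at chr2:45117393-45117692 (minus), *Fcna* at chr2:25627925-25628224 (minus) and *Hsd11b1* at chr1:193242311-193242610 (minus).
Axl: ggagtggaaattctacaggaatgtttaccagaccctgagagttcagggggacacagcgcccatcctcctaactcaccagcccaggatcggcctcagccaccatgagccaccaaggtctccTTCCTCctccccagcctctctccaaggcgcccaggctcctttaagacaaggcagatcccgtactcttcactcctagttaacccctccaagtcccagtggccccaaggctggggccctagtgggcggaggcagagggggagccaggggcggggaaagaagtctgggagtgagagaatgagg
Sdc3: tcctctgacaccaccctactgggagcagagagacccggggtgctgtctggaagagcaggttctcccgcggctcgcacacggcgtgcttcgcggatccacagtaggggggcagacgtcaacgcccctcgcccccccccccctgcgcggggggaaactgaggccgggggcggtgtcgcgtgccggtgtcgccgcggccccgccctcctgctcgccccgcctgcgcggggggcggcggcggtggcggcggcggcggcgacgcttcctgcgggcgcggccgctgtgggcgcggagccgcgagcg
Zeb2: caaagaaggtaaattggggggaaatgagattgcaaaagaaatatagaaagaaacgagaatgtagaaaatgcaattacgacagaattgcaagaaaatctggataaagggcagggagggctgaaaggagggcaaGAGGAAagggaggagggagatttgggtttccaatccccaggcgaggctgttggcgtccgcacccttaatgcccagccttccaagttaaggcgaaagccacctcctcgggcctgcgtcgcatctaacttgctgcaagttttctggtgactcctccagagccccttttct
Fcna: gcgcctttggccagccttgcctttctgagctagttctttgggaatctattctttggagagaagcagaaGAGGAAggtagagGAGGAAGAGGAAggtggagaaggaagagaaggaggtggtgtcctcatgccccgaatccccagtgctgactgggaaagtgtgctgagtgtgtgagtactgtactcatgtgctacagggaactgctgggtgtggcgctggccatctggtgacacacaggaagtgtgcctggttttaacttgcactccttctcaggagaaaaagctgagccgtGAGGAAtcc
Hsd11b1: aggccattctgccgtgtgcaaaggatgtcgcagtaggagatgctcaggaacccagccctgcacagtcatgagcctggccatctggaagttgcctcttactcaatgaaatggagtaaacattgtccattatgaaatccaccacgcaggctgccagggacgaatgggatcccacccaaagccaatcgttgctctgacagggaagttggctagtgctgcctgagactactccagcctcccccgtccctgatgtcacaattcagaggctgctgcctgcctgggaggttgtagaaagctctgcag

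The *Fcna* window held the 6 letters 4 times, with 2 copies side by side, the *Axl* and *Zeb2* windows once each, and the *Sdc3* and *Hsd11b1* windows not at all. Among the 24 genes named in this comparison, 5 of the 10 higher genes with an entry and 1 of the 7 lower genes had a match, beside 135 of 464 genes of the table (29.1%) and 28.3% of 27025 genes. A match is a string of letters in a window and no evidence of binding, and the numbers are too small to compare.

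*Axl*, a receptor tyrosine kinase that lets macrophages engulf apoptotic cells, had Q3-normalized values of 86.1, 97.8, 74.3 and 68.2 in the MARCO- segments of livers 1 to 4. In Other segments it had 9.51, 8.06, 10.8 and 7.82. Every liver mean of MARCO- segments lay above every liver mean of Other segments. Liver means were apart in this way for 245 higher (40.4%) and 117 lower genes (19.3%) of all genes. Of the 158 genes well above the floor, this held for 35 higher (22.2%) and 77 lower (48.7%). Single MARCO- segments ranged from 13.0 to 116.6 with a median of 78.2, and 23 of 24 lay above the highest of the 49 Other segments (16.7). Single segments are not replicates. The share of all genes whose segments lay apart in this way is not given, so such ranges only describe this gene and those below. The log2 difference was 3.03 ± 0.18 (SE, n = 4 livers, limma, adjusted p = 7.2e-09), the largest of the genes well above the floor. Its counts summed to 297 over the MARCO- segments, with 1 segment at 1 count.

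*Sdc3*, syndecan 3, had values of 135.5, 58.7, 142.9 and 114.6 in MARCO- and of 13.6, 11.1, 16.2 and 11.4 in Other segments of livers 1 to 4. Liver 2, with only 2 MARCO- segments of 2 counts at the upper quartile, was the lowest in both types. All 24 MARCO- segments (39.1 to 197.0, median 122.9) lay above the highest Other segment (29.2). The log2 difference was 2.96 ± 0.19 (SE, n = 4 livers, limma, adjusted p = 8.2e-09), and its 485 counts make it the best measured of the leading genes.

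*Zeb2*, a zinc finger repressor, had values of 79.7, 65.2, 58.0 and 66.7 against 9.04, 8.05, 10.1 and 8.24. As for *Sdc3*, all 24 MARCO- segments (26.1 to 95.6) exceeded the highest Other segment (13.4). *Fcna* had values of 79.2, 58.7, 69.6 and 49.7 against 8.09, 6.98, 11.2 and 8.39, and 22 of 24 MARCO- segments exceeded the highest Other segment (21.6). In both genes the 4 livers were alike within each type. The log2 differences were 2.79 ± 0.17 and 2.75 ± 0.18 (SE, n = 4 livers, limma, adjusted p = 8.2e-09 for each). For these 4 genes the Other level lay near the value of 1 MARCO- count, whereas the MARCO- level stood at a median of 6.5 to 14 counts per segment.

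**Figure D2:**
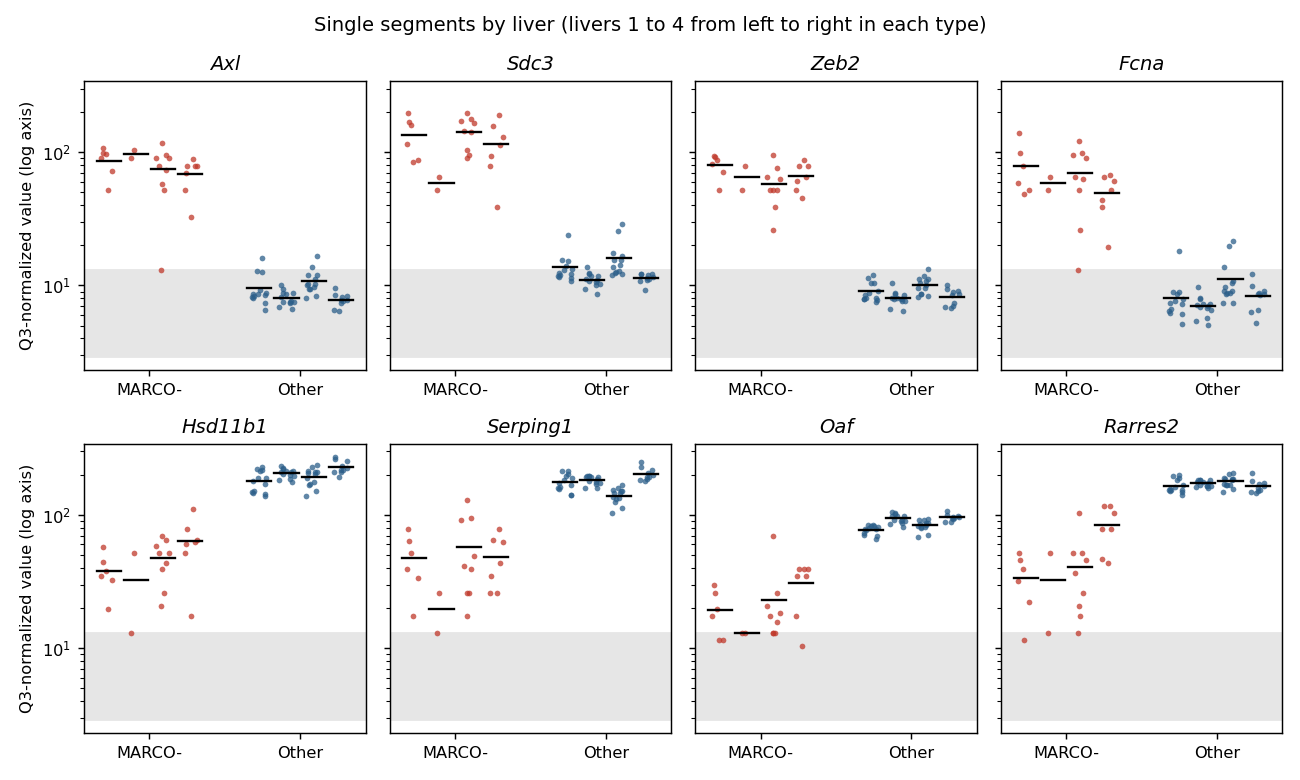
Q3-normalized values (log axis) of single segments for the 4 highest genes (top) and the 4 lowest genes (bottom) in MARCO- (red) and Other (blue) segments, with livers 1 to 4 from left to right within each type and bars at the liver means. The grey band spans the value of 1 count in MARCO- segments, 2.90 to 13.0. In the top row nearly all MARCO- segments lie above the Other segments, and in the bottom row nearly all lie below them, also in liver 2 with its 2 segments.

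The remaining higher genes rose by 1.42 to 1.88 on the log2 scale, with limma adjusted p of 2.77e-05 or less. They were higher in all 4 livers, which was part of their selection. *Tmsb10*, thymosin beta 10, which binds actin monomers, had values of 58.5, 39.1, 55.8 and 79.1 against 14.0, 13.5, 19.01 and 12.5 (log2 difference 1.88 ± 0.20, SE). *Actn1* (alpha-actinin 1), which crosslinks actin, and *Macf1*, which links actin with microtubules, differed by 1.42 ± 0.18 and 1.44 ± 0.21 (SE). Liver 2 carried much of the latter, with 2.29 for *Macf1* against 1.11 to 1.21 in the other livers. *Ifi27l2a*, an interferon-induced gene, differed by 1.48 ± 0.18 and *Adap2*, which binds phosphoinositides at the membrane, by 1.54 ± 0.19 (SE). With *Adap2* the Other level was even, at 24.8 to 29.05, and the MARCO- level ranged from 50.5 in liver 3 to 110.8 in liver 2.

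*Bgn*, *Ecm1* and *Dcn*, which encode biglycan, extracellular matrix protein 1 and decorin, were also among the 12 highest genes, although they are best known from stellate cells and fibroblasts. *Dcn*, a small proteoglycan that binds collagen fibrils, had values of 67.9, 39.1, 84.1 and 57.2 in MARCO- and 23.1, 14.2, 20.9 and 20.5 in Other segments (log2 difference 1.58 ± 0.17, SE, n = 4 livers, limma, adjusted p = 2.27e-06). In the hepatic stellate cell (HSC) segments of the same livers, which are the DESMIN-stained areas, it stood at 206.0, 230.7, 189.0 and 163.0. The MARCO- level thus lay between Other and HSC segments in every liver, and so it did for *Bgn* and *Ecm1*. *Bgn* averaged 56.0 in MARCO-, 17.02 in Other and 135.0 in HSC segments, and *Ecm1* 54.0, 16.2 and 117.8. The part of stellate cell RNA from the same ROI in these values was not tested.

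**Figure D3:**
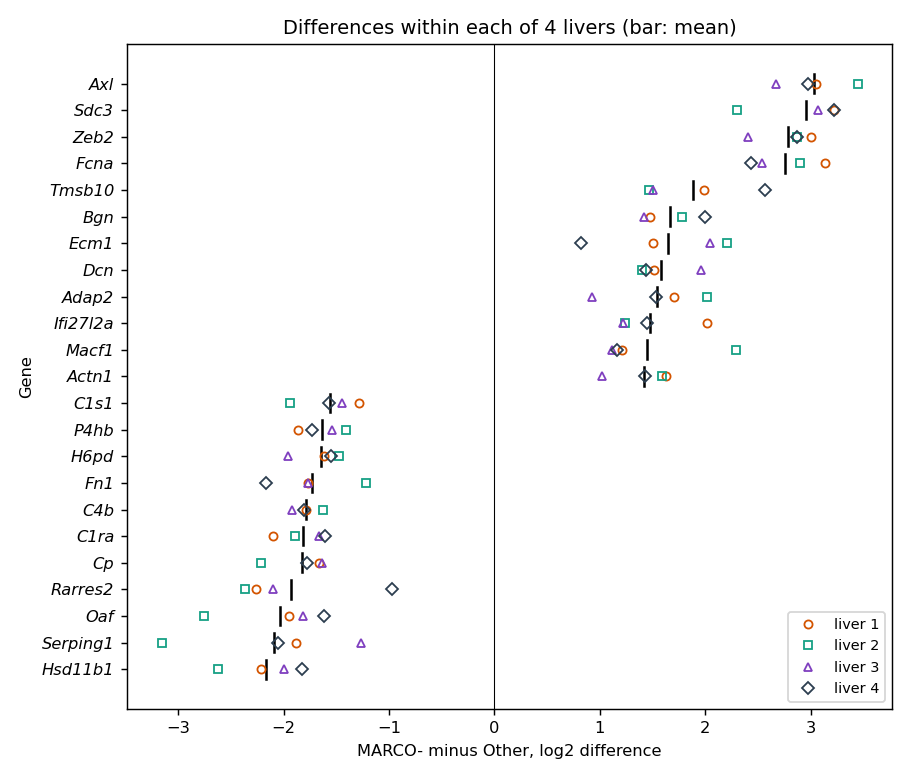
Log2 difference of MARCO- from Other segments within each of the 4 livers (symbols) and the mean (bar) for the 12 highest genes and 11 of the 12 lowest. Every symbol of a gene lies on the same side of 0, which the rule for named genes required. Livers 2 and 4 lie away from the other livers for single genes, such as liver 2 for *Macf1* and *Serping1* and liver 4 for *Ecm1* and *Rarres2*.

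Among the genes that were lower in MARCO- segments, those of the complement system formed the largest named group. The liver makes most complement of the plasma, with C1r, C1s and C4 in the classical pathway, MASP1 in the lectin pathway, and C1 inhibitor (*Serping1*) as a brake on both. *C4b* had values of 81.7, 91.3, 60.6 and 96.0 in MARCO- and of 284.4, 284.8, 233.1 and 337.8 in Other segments. All 24 MARCO- segments (13.0 to 147.8) lay below the lowest of the 49 Other segments (177.6). The log2 difference was -1.79 ± 0.17 (SE, n = 4 livers, limma, adjusted p = 5.31e-07).

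*Serping1* had values of 47.4, 19.6, 57.4 and 48.1 against 177.3, 182.4, 139.7 and 203.2, a log2 difference of -2.09 ± 0.24 (SE, n = 4 livers, limma, adjusted p = 2.81e-06). Liver 2 lay lowest in MARCO- segments, with a difference of -3.16, and liver 3 was closest, with -1.27. *C1ra* and *C1s1*, the proteases of the C1 complex, differed by -1.82 ± 0.17 and -1.56 ± 0.18 (SE). *Masp1* was lower by less, from 36.003, 44.2, 37.8 and 44.9 in Other to 23.1, 26.1, 25.5 and 21.9 in MARCO- segments (log2 difference -0.73 ± 0.17, SE, limma, adjusted p = 0.00162). *C2*, below the limit for genes well above the floor, differed by -1.08.

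In the list of chemokines, cytokines, complement and collectins, 17 genes were in the table and 9 well above the floor. Of those 9, limma called 6 lower and 2 higher, beside 51.3% lower and 21.5% higher of the 158 genes. Their median log2 difference was -1.56 beside -0.43 over the 158 genes. The 2 higher genes were *Fcna* and *Tnfrsf1a*, a receptor of tumor necrosis factor (0.49 ± 0.17, SE), which edgeR did not call (0.18, adjusted p = 0.304). *Fcna* was thus the only complement component of the list that was well above the floor and higher in MARCO- segments. *Cxcl12*, the chemokine that holds leukocytes in tissues, differed by 0.13 and was not called.

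The other lowest genes encode secreted proteins and enzymes. *Hsd11b1*, which regenerates active glucocorticoid in the endoplasmic reticulum, had values of 37.9, 32.6, 47.4 and 63.9 in MARCO- and 180.0, 205.9, 192.9 and 229.1 in Other segments. All 24 MARCO- segments (13.0 to 110.8) lay below the lowest Other segment (139.1), and the log2 difference was -2.17 ± 0.18 (SE, n = 4 livers, limma, adjusted p = 1.66e-07). *H6pd*, which makes the cofactor of that enzyme, was lower as well, by -1.65 ± 0.17 (SE), with 32.7, 32.6, 21.8 and 32.4 against 102.5, 92.4, 87.6 and 96.6. Both genes were lower in all 4 livers, which the rule for named genes required. *Rarres2*, which encodes the chemoattractant chemerin, had values of 33.8, 32.6, 40.9 and 83.7 against 166.1, 172.9, 178.8 and 165.4 (log2 difference -1.93 ± 0.22, SE). Liver 4 was closer to its Other segments than the remaining livers.

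*Cp*, the copper-carrying plasma protein ceruloplasmin, was at 54.6, 39.1, 54.3 and 46.995 in MARCO- and at 174.7, 185.0, 171.5 and 163.4 in Other segments (log2 difference -1.82 ± 0.17, SE). *Fn1*, fibronectin, which hepatocytes secrete into plasma and other cells deposit in the matrix, was at 65.2, 110.8, 57.9 and 58.2 against 224.8, 260.2, 200.3 and 264.8 (-1.73 ± 0.18, SE). It was the single called gene of the 31 other matrix genes in the table that was lower. Limma called 29 of the 31 higher, beside 47.6% of all 607 genes. Most of the 31 were not well above the floor, so no direction is drawn from that count. Of the 5 matrix genes well above the floor 4 were higher, namely *Bgn*, *Dcn*, *Ecm1* and *Igfbp7*, beside 21.5% of the 158 genes. *Oaf*, a secreted protein of poorly known function, had 81 summed counts over the MARCO- segments, the fewest of the 24 named genes, and differed by -2.04 ± 0.20 (SE).

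Genes of protein folding and entry into the endoplasmic reticulum were lower together in MARCO- than in Other segments. This group was put together after its members' values had been seen and is given as a description. Of 52 listed genes 21 were in the table, of which 17 were lower, 0 higher and 4 not called by limma, with a median log2 difference of -0.81 beside 0.38 over all 607 genes. Among the 18 well above the floor 17 were lower, the exception being *Ost4*, beside 51.3% of the 158 genes. The median of these 18 was -0.85 beside -0.43 over the 158 genes. *P4hb* (protein disulfide isomerase) had values of 61.3, 104.3, 80.9 and 82.8 against 225.7, 278.0, 237.3 and 277.8, a log2 difference of -1.64 ± 0.17 (SE). The chaperones *Hsp90b1* and *Hspa5* differed by -1.07 ± 0.17 and -0.99 ± 0.22 (SE). For *Hspa5* the livers were uneven and split by label. The differences were -0.44 and -0.38 in livers 1 and 3 (treated CCl4) and -1.67 and -1.46 in livers 2 and 4 (control). Limma called no gene for a dependence on the label. The lower level of the group was not seen against every type. Compared with HSC segments, limma called 0 of its 21 genes higher and 0 lower, with a median log2 difference of 0.04. Compared with MARCO+ segments it called 1 higher and 3 lower, and 17 were not called (median -0.25).

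The list of stress proteins and immediate early genes shared *Hspa5*, *Hsp90b1* and *Dnajc3* with that group. Of its 12 genes in the table limma called 4 higher and 6 lower, and 2 were not called. The 6 lower genes were the 6 well above the floor, where 51.3% of the 158 genes were lower, and those outside the endoplasmic reticulum group were *Mt1*, which binds metals, and *Zfp36* and *Zfp36l1*, which promote decay of messenger RNA. *Mt1* was the least even of them in Other segments, with 273.0, 49.6, 56.9 and 182.3 in livers 1 to 4, and its liver means overlapped between the types. *Ndufa2*, the single gene of the respiratory chain in the table, was lower by 2.91 times (log2 difference -1.54 ± 0.22, SE), with 6 of 24 MARCO- segments at 1 count.

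Of the macrophage list, all 6 genes in the table were called higher by limma, beside 47.6% of all 607 genes, with a median log2 difference of 1.16 beside 0.38. *Axl*, *Ctsd* and *Id3* were well above the floor, whereas *Timp2*, *Cd63* and *Marco* were not, and the direction of *Marco* turned with 1 count subtracted from every count. *Ctsd*, cathepsin D, a protease of lysosomes, had values of 235.9, 286.8, 164.9 and 170.3 against 83.9, 85.2, 87.2 and 97.1 (log2 difference 1.23 ± 0.19, SE, n = 4 livers, limma, adjusted p = 6.52e-05). It was the best measured gene of the list, at 755 summed counts and never at 1 count. *Id3*, a regulator needed by Kupffer cells, was at 44.1, 45.6, 34.1 and 47.5 against 16.8, 23.3, 16.6 and 22.1 (1.09 ± 0.17, SE). *Timp2*, an inhibitor of matrix proteases, and *Cd63*, a tetraspanin of lysosomes, were higher by 1.53 and 0.93. *Plac8*, the single gene of the monocyte, neutrophil and lymphocyte list, differed by 1.37 on 120 counts, with 7 segments at 1 count.

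Lysosome genes did not move together. In the list of vesicle traffic and lysosome genes, 16 were in the table and 9 well above the floor. Of those 9, 2 were higher, 5 lower and 2 not called. This split was near that of the 158 genes (21.5% higher, 51.3% lower). *Ctsl*, cathepsin L, was at 65.6, 84.7, 68.3 and 87.3 in MARCO- and 194.9, 250.7, 199.7 and 242.7 in Other segments, a log2 difference of -1.53 ± 0.17 (SE), opposite to *Ctsd*. *Lamp2*, a protein of the lysosomal membrane, differed by -1.16 ± 0.19 (SE) and *Ctsz*, cathepsin Z, by -0.04.

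The lists of genes that make or remodel matrix and of stellate cell genes gave many calls on the higher side, most of them near the floor. Limma called 10 of 11 collagen chains higher, but none was well above the floor. *Col1a1*, for example, had 54 counts in all MARCO- segments and stood at 1 count in 12 of 24. Of 34 stellate cell genes 29 were called higher and 1 lower, but only 5 were well above the floor, of which 3 (*Dcn*, *Ecm1* and *Fcna*) were higher. *Fcna* is on that list although it is known as a macrophage gene. The same held for 17 of 20 growth factor and signalling genes, 13 of 14 matrix enzymes and inhibitors (1 well above the floor) and 5 of 5 smooth muscle and portal fibroblast genes, so no direction is drawn from these counts.

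Among contractile and cytoskeletal genes, 29 were in the table and 9 well above the floor, of which 5 were higher (*Actn1*, *Myl12a*, *Tln1*, *Tmsb10* and *Tuba1b*), 1 lower and 3 not called, beside 21.5% higher and 51.3% lower of the 158 genes. *Tln1*, talin 1, which ties integrins to actin, was at 56.4, 39.1, 51.3 and 45.7 against 16.97, 18.8, 17.6 and 17.6 (log2 difference 1.38 ± 0.18, SE). The lower gene was *Cnn3*, calponin 3 (-0.90). Just under the limit, *Flna* (filamin A) and *Vim* (vimentin) differed by 2.21 and 1.69 on 140 and 160 counts, and edgeR gave 2.27 and 1.71. Of 17 axon guidance and adhesion genes 4 were well above the floor, with *Itgb5*, an integrin chain, higher by 1.02, *Lrrc58* lower and 2 not called. Of 23 genes of RNA binding and translation 10 were well above the floor, of which 2 were higher, 2 lower and 6 not called. The 2 listed endothelial genes, *Rgs5* and *Rspo3*, were not well above the floor.

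For *Marco*, the gene of the gate, the difference between the types depended on how the few counts were treated. *Marco* transcripts had values of 16.7, 13.0, 78.9 and 18.4 in MARCO- segments and 17.6, 8.93, 27.2 and 9.12 in Other segments. Liver 3 stood apart in both types, and in its MARCO- segments a single segment had 482.4 (37 counts) and the next 78.2. The mean log2 difference was 0.72 ± 0.66 (SD, n = 4 livers), higher in 3 of 4 livers (exact two-sided sign-flip permutation test, p = 0.25, where 4 livers allow no p below 0.125). Limma called it higher (adjusted p = 0.0089), as did edgeR (log2 difference 0.46, adjusted p = 0.0365). Without the segment of the highest value it was 0.36, and with 1 count subtracted from every count it was -0.62. In 7 of 24 MARCO- segments *Marco* was at 1 count. In MARCO+ segments of the same livers it was at 694.5, 179.1, 1042.9 and 242.1. *Des*, which encodes the protein used to exclude stellate cells, had 37 counts and stood at 1 count in 17 of 24 segments. Its log2 difference of 0.92 by limma (adjusted p = 9.94e-04) turned to -1.09 when 1 count was subtracted, and edgeR gave 0.55 (adjusted p = 0.0553).

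The livers labelled treated CCl4 and those labelled control were compared for the same difference. Limma found 0 of 607 genes (0%) in which the difference of MARCO- from Other segments depended on the label, with 67 genes at an unadjusted p below 0.05, and edgeR and DESeq2 found 0 (37 and 11 genes at an unadjusted p below 0.05). Leaving out a liver left a label with a single liver. The counts of those fits are listed only in the closing section, and nothing is drawn from them. Among the 24 named genes the estimate was largest for *Serping1* (1.03, adjusted p = 0.342). On single segments, which are not replicates, 90 genes passed with duplicateCorrelation and 100 with a mixed model.

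The comparison with MARCO+ segments showed how the macrophage segments differed from each other. Limma called 205 of 607 genes (33.8%), 177 higher (29.2%) and 28 lower (4.61%) in MARCO- segments, which is the side that the floor favours. Of 153 genes well above the floor 30 were called (19.6%), 7 higher (4.58%) and 23 lower (15%). *Marco* was lower by a log2 difference of -4.08 ± 0.25 (SE), as the gate requires. *Fcna* followed, at 79.2, 58.7, 69.6 and 49.7 against 193.0, 218.9, 257.8 and 246.1 (-1.83 ± 0.19, SE, n = 4 livers, limma, adjusted p = 4.11e-05). *Sdc3* was also lower than in MARCO+ segments (-0.80 ± 0.19, SE, adjusted p = 0.00632), and *Axl* differed by -0.22 ± 0.17 (SE, adjusted p = 0.348). *C4b*, *Ndufa2* and *Hsd11b1* were lower by 1.86 to 2.03 times. The number of calls was unstable: it was 133 without liver 2, 109 without liver 3, 15 in MARCO-low ROIs alone and 1 (*Marco*) with 1 count subtracted from every count. Higher were *Tgfbi*, *Col3a1*, *Ogt*, *Zeb2* and *Cxcl12*, by 1.43 to 1.79 times. *Tgfbi*, a matrix protein that macrophages also make, was at 34.9, 26.1, 36.9 and 47.9 against 21.3, 16.9, 20.1 and 19.8 (0.84 ± 0.17, SE, adjusted p = 0.0044). *Ogt*, *Zeb2* and *Cxcl12* passed the threshold in only 11, 12 and 8 of 24 alternative settings.

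Against HSC segments limma called 159 genes (26.2%), 96 higher (15.8%) and 63 lower (10.4%), or 105 without liver 2 and 75 without liver 3 or liver 4, and of 147 well above the floor 69 (46.9%), 31 higher (21.1%) and 38 lower (25.9%). *Sdc3*, *Axl*, *Fcna*, *Zeb2* and *Ctsd* were higher by 2.90 to 5.07 times. *Axl* in HSC segments was at 20.2, 14.9, 16.2 and 11.4, closer to Other than to MARCO- segments. *Igfbp3*, *Dcn*, *Col14a1*, *Col3a1* and *Sod3*, genes of stellate cells and matrix, were lower by 2.65 to 3.58 times. Of the 9 stellate cell genes well above the floor in this comparison 8 were lower and 1, *Fcna*, higher. The MARCO- segments thus stood below HSC and above Other segments for *Dcn*, *Bgn* and *Ecm1*.

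The 24 genes named against Other segments were followed through the other types. Of the 12 higher genes, 8 were also higher than in HSC segments, 3 (*Bgn*, *Dcn* and *Ecm1*) were lower and *Tmsb10* was not called. Against MARCO+ segments 1 of them (*Zeb2*) was higher, 2 (*Fcna* and *Sdc3*) lower and 9 not called. Of the 12 lower genes, 10 were also lower than in HSC segments and 8 lower than in MARCO+ segments, and none was higher. All these comparisons share the MARCO- segments, so they are not independent. *C4b*, for example, averaged 82.4 in MARCO-, 126.6 in HSC, 168.6 in MARCO+ and 285.0 in Other segments. MARCO- segments had the lowest mean of the 4 types for all 12 lower genes.

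**Figure D4:**
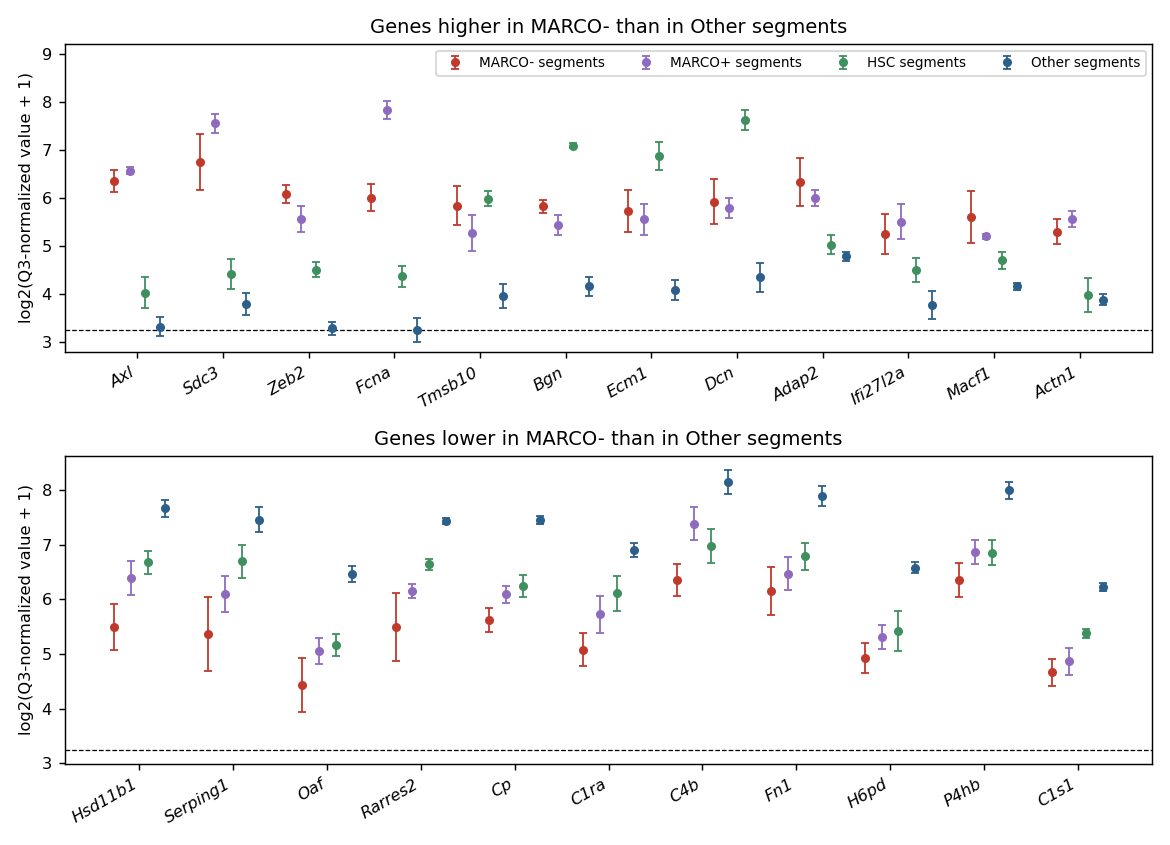
Mean ± SD over 4 livers of log2 of the Q3-normalized value plus 1 in MARCO- (red), MARCO+ (purple), HSC (green) and Other (blue) segments, for the 12 genes highest (top) and 11 of the 12 lowest (bottom) in MARCO- against Other segments. The dashed line is the mean value of 1 count in MARCO- segments. *Axl*, *Sdc3* and *Fcna* are high in both macrophage types, *Bgn*, *Ecm1* and *Dcn* are highest in HSC segments, and the 11 lower genes are lowest in MARCO- and highest in Other segments.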

How the data were processed

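Formalin-fixed sections were profiled with the GeoMx Digital Spatial Profiler. The authors converted reads (bcl2fastq 2.20.0.422 and build mm10 per the submitters' processing notes) and collapsed unique molecular identifiers into counts. They filtered segments and probes, kept genes found mainly in stellate cells and scaled each segment to its upper quartile. Whatever the order of these steps, the upper quartile over the 607 deposited genes is 26.1 in every segment. The deposited values are a signal on this Q3 scale. All 96513 values came out as whole multiples of a single step per segment (relative tolerance 1e-06). These multiples were used as counts in alternatives. Segments were averaged per liver and type on the linear scale, log2(value + 1) was taken, and limma 3.58.1 (R 4.3.3; lmFit, eBayes) was fitted with liver as a block and Benjamini-Hochberg adjustment over 607 genes. Liver pairs the types because both come from 1 animal. The correlation of their deviations within livers 1 to 4 was 0.05, 0.04, 0.31 and 0.24. Alternatives used edgeR 4.0.16, DESeq2 1.42.0, lme4 1.1.37 and lmerTest 3.1.3. Fits were tested on simulated data. Named genes had an adjusted p below 0.05, the same sign in 4 livers and a level well above the floor: the 12 highest and 12 lowest against Other, and 5 of each otherwise, plus gate genes and list members. Of the 12 lowest, 1 gene is counted but not reported here. Members and lists were chosen with earlier results of these data known.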

Additional observations from a re-analysis of the deposited data

Results flagged for a closer look

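Of 49 groups tested for a value far from the others, 5 had one, and chance alone flags about 1 in 20 groups. In the comparison with Other segments, liver 2 stood apart for *Sdc3* (log2 difference 2.31, other livers 3.07 to 3.23) and for *Macf1* (2.29, others 1.11 to 1.21). Against MARCO+ segments, liver 1 stood apart for *Marco* (-5.29, others -3.71 to -3.65) and liver 2 for *Hsd11b1* (-1.52, others -0.75 to -0.64). Among the 9 MARCO- segments of liver 3, 1 had a *Marco* value of 482.4, whereas the others lay between 6.14 and 78.2. Liver 2 had 2 MARCO- segments, with 1094 and 1203 counts.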

How the results depend on the processing

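Of the 24 genes named against Other segments, 23 kept their direction and their side of the threshold under all 24 alternatives, and *Ifi27l2a* did so under 23 (1.02, limma adjusted p = 0.0576, with 1 count subtracted from every count). For MARCO- versus Other, the count of called genes was 338 to 435 when each liver was left out, 413 with no replicate block (main 408 with it), 117 when genes near the floor were left out before the fit (fewer genes tested) and 212 (105 higher, 107 lower) when values under the floor were raised to it. With 1 count subtracted it was 295 (27 higher, 268 lower), and re-centred on the median 375 (231 higher, 144 lower). Among genes well above the floor it was 99 to 118 when each liver was left out. The difference in *Marco* was 0.46 to 0.98 without each liver and -0.62 with 1 count subtracted, and that in *Des* was -1.09. For MARCO- versus MARCO+ the count was 20 with the filter, 15 in MARCO-low ROIs, 7 with the floor raised, 1 with 1 count subtracted, 77 and 133 by edgeR with TMM and Q3 scaling, 37 by DESeq2, 82 without the 8 MARCO- segments whose upper quartile was 2 counts (chosen after seeing the data, and leaving no segment of liver 2), and 109 to 248 without each liver. For MARCO- versus HSC it was 83 with the filter, 104 by DESeq2, 240 with duplicateCorrelation, 240 with the mixed model, 282 with all 4 types in 1 fit, and 75 to 131 without each liver. The dependence on the label gave 90 genes with duplicateCorrelation and 100 with the mixed model, both on single segments, 1 without the 8 segments and 0 to 50 without each liver. Without a liver a label was left with a single liver, so nothing is drawn from the last range. Other causes were not tested. Depth limits all of this: MARCO- segments had 2 to 9 counts at the upper quartile.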
